A study of Ursus arctos with 5 samples.

Results

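Heat shock proteins and chaperones are the transcripts described here, in the gastrocnemius muscle (the main calf muscle) of grizzly bears (Ursus arctos). The members were all transcripts whose gene name begins with HSPA, HSPB, HSPD, HSPE or HSPH and a digit, with HSP90 or DNAJ, or is TCP1, CCT2 to CCT8, or BAG1 to BAG6. They came to 64 transcripts of 35 genes, out of 26614 transcripts in the table, of which 9093 carry a gene name and represent 4873 genes. The rule reads gene names and no measured value.

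RNA was taken from 2 captive bears, called Star and Tia in the labels, each biopsied in October, when active, and again in February, when hibernating. Each state is therefore represented by 2 libraries, 1 per bear, and each bear has 1 library per state. The labels give all samples as adult (10 years), whereas the methods of the study speak of a subadult and an adult, and a single muscle biopsy stands for a bear in a state. Feeding had stopped in November, the hibernating bears lived in unheated dens, and they received a lower dose of tiletamine and zolazepam than the active bears before isoflurane, so that season, fasting, temperature, rest and anesthetic dose cannot be told apart from hibernation. No genetic change or drug treatment was part of the design. In a biopsy, fewer cells of a type and less RNA per cell cannot be told apart either.

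Chaperones bind proteins that are unfolded or not yet folded and keep them from aggregating. HSP70 proteins hold and release their clients in a cycle driven by ATP; J-domain proteins (the DNAJ genes, also called HSP40) bring clients to HSP70 and start the cycle, and HSP110 and BAG proteins help it to let go of ADP. HSP90 takes over partly folded clients, the ring-shaped CCT complex folds actin and tubulin among others, and HSPD1 with HSPE1 forms the folding chamber of mitochondria. In skeletal muscle this machinery is known for handling damaged contractile proteins and for responding to heat, exercise and disuse. No transcript or protein sequences of the bear were used here, so the members are shown by their values.

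Expression was given as RPKM (reads per kilobase of transcript and mega aligned reads of the library), which allows levels to be set side by side between transcripts of different length. The libraries held 44.7 to 54.2 M (mega) aligned reads, and a member's value rested on 29 to 14292 reads. Of 9 skeletal muscle markers, 4 (MYH1, MYH2, MYH7 and TTN) had a transcript, with summed levels of 9467 to 13730 RPKM, and none of 6 blood markers had one. Markers of other cell types differed most in the active library of Tia. There, the fibroblast and matrix list (4 of 7 genes with a transcript) summed to 336.7 RPKM, against 276.5 in hibernation (160.1 and 229.8 RPKM in Star, the opposite order), and was carried by COL1A1 at 193 RPKM, against 6.79 to 10.95 RPKM elsewhere. LPL, the only one of 7 fat markers with a transcript, was at 120 RPKM there against 63.4 in the hibernating library, and at 18.8 and 19.8 RPKM in Star. The 3 slow fibre genes measured summed to 5693 (hibernating) and 5083 RPKM (active) in Tia and to 2255 and 2818 in Star. Fast fibre genes (4 of 7) summed to 7260 against 9640 RPKM in Tia and 13750 against 13980 in Star, and the 2 endothelial genes of 6 to 13.4 against 14.4 and 13.0 against 8.64 RPKM. A few markers separated the states. COL3A1 was at 254 and 210 RPKM in hibernating Tia and Star against 116 and 136 RPKM in activity. CD68, the only 1 of 5 macrophage markers with a transcript, was at 6.41 and 7.12 against 3.94 and 3.28 RPKM. MYH2 was also higher in hibernation, at 3841 and 3863 against 2755 and 3493 RPKM, unlike the fast fibre sums. So were COL1A2, at 3.995 and 3.594 against 2.592 and 3.146 RPKM, and EGFL7, at 2.535 and 1.455 against 1.412 and 1.112 RPKM. FBN1 was lower in hibernation, at 7.58 and 7.27 against 24.9 and 14.1 RPKM. The part of these differences in the results that follow was not tested.

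The members together held 0.307% of the reads of the table in hibernating Tia, 0.311% in active Tia, 0.276% in hibernating Star and 0.268% in active Star. The share thus moved little within a bear, while single chaperone genes differed in opposite directions. DNAJB1 was higher in hibernation and HSPA8 and DNAJA1 were lower. With 1 transcript per gene, the one with the most reads, the summed level of the HSP70 genes was 176.2 RPKM against 236.9 in Tia and 174.7 against 191.1 in Star (hibernating against active). Summed levels of the DNAJB genes moved the other way, with 49.4 against 22.2 RPKM in Tia and 34.7 against 26.1 in Star. Of the HSP70 sums, HSPA8 alone held 78.3 against 118.8 RPKM in Tia and 54.1 against 80.1 in Star. By gene, the median log2 difference of HSP70 was 0.003, so its sums do not stand for each gene. Of the DNAJB sums, DNAJB1 alone held 26.1 against 5.13 RPKM in Tia and 11.5 against 5.84 in Star.

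Differences between hibernating and active libraries were tested with limma on log2(RPKM + 0.5), with Benjamini-Hochberg adjustment over all 26614 transcripts. A fold change given on this scale understates that of a low transcript, the more so the lower its level. No member passed an adjusted p of 0.05, the background over all transcripts being 0%. Without adjustment, limma gave a p under 0.05 for 6 members higher in hibernation (2 transcripts each of DNAJB1 and DNAJC14, 1 each of DNAJC18 and DNAJC3; background 6.99%) and for 1 lower, DNAJA1 (background 1.42%). A score modelled on NOISeq, the method of the study, reached 0.8 for 2 members higher, both DNAJB1 (background 2.49%), and 1 lower, DNAJA1 (background 1.21%). A 2-fold difference in both bears was met by 0 members in either direction, against 0.906% of all transcripts higher and 0.286% lower.

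As a plainer measure, both hibernating libraries lay above both active libraries for 29 of 64 members (45.3%), against 33.6% of all transcripts, and below them for 3 members (4.69%), against 8.40%. With 1 transcript per gene the counts were 14 of 35 (40.0%) against 35.8% higher and 2 of 35 (5.71%) against 8.11% lower. For 2 against 2 libraries the smallest two-sided p of an exact permutation test is 0.333, so such a separation is a description. The median log2 difference was 0.19 over the members (0.21 in Tia, 0.15 in Star) and 0.12 over all transcripts (0.10 and 0.16). With 1 transcript per gene it was 0.158 over the members and 0.146 over all named genes, so little of that surplus remained. These shares depended on the scaling between libraries. Scaling by the median ratio moved all log2 differences by -0.17 on average. It left 21 members higher (32.8%) and 13 lower (20.3%), against 19.9% and 17.7% of all transcripts. Scaling by the upper quartile moved them by -0.20 and left 12 members higher (18.8%) and 13 lower (20.3%), against 18.0% and 19.9%.

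**Figure D1:**
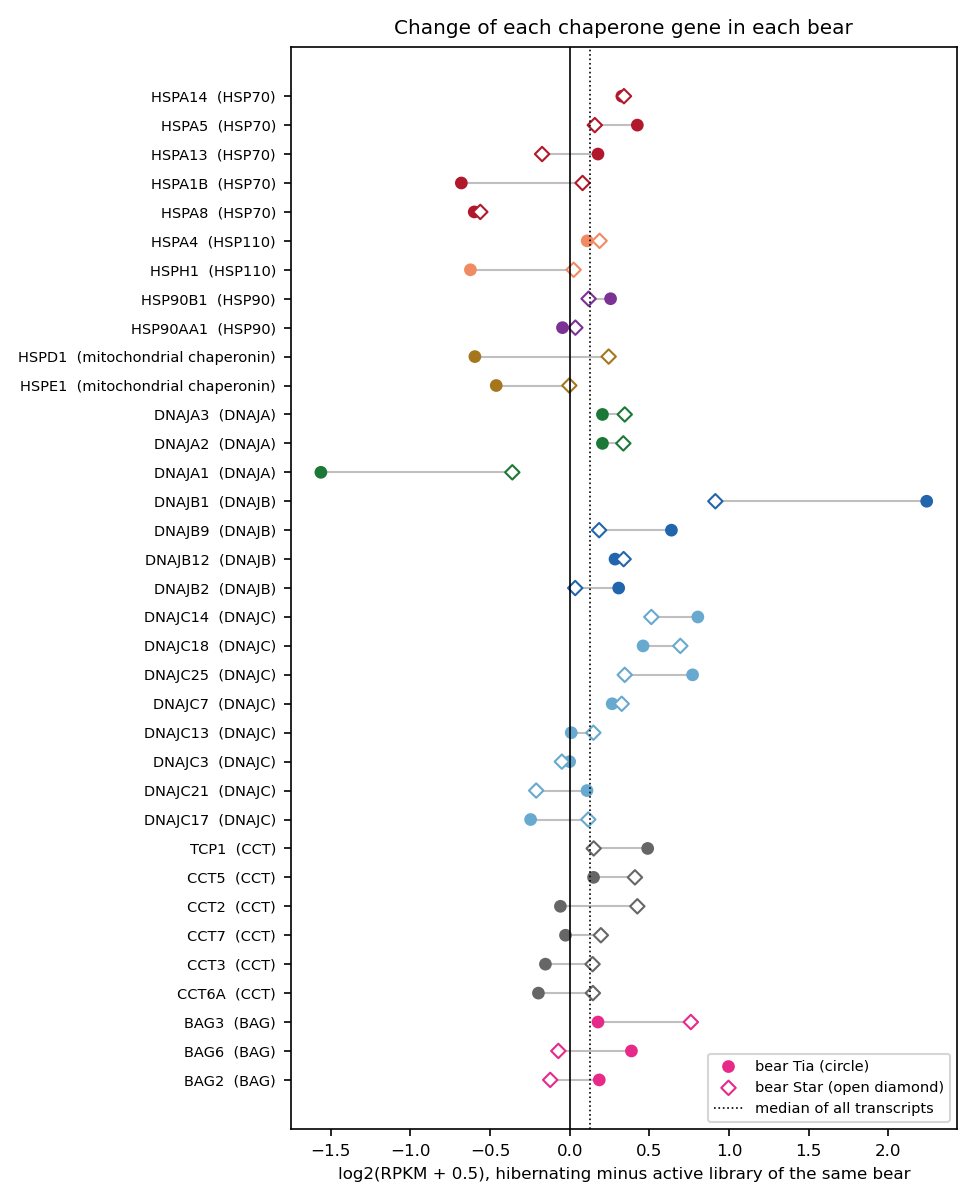
Difference in log2(RPKM + 0.5) between the hibernating and the active library of the same bear (x axis), for the most-read transcript of each of 35 chaperone genes (y axis, family in brackets). Filled circles stand for Tia, open diamonds for Star and the dotted line for the median of all transcripts, 0.12; DNAJB1 lies farthest to the right and DNAJA1 farthest to the left.

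J-domain proteins of the DNAJB class held the largest difference among the members. DNAJB1, which is induced by heat shock and works with cytosolic HSP70, was measured by isotig14225 at 26.1 RPKM in hibernating and 5.13 RPKM in active Tia, and at 11.5 RPKM in hibernating and 5.84 RPKM in active Star. The active libraries lay close together, and both hibernating libraries lay above them, Tia by 409% and Star by 96.2% of the active level. The log2 fold change was 1.58 ± 0.40 (limma SE, 2 bears per state; limma adjusted p = 0.577), or 1.45 above the median of all transcripts, and it ranked at 65 among the rises of the 26614 transcripts. With the animal as a block, the limma adjusted p was 0.236. The size of the difference rested on Tia: without the hibernating library of Tia the log2 fold change of DNAJB1 was 1.00, and without that of Star 2.16. The other DNAJB1 transcript, isotig14226, shared most of this pattern, with 20.9 and 10.1 RPKM in hibernating and 4.92 and 5.58 RPKM in active Tia and Star (log2 fold change 1.40 ± 0.36, limma adjusted p = 0.577).

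**Figure D2:**
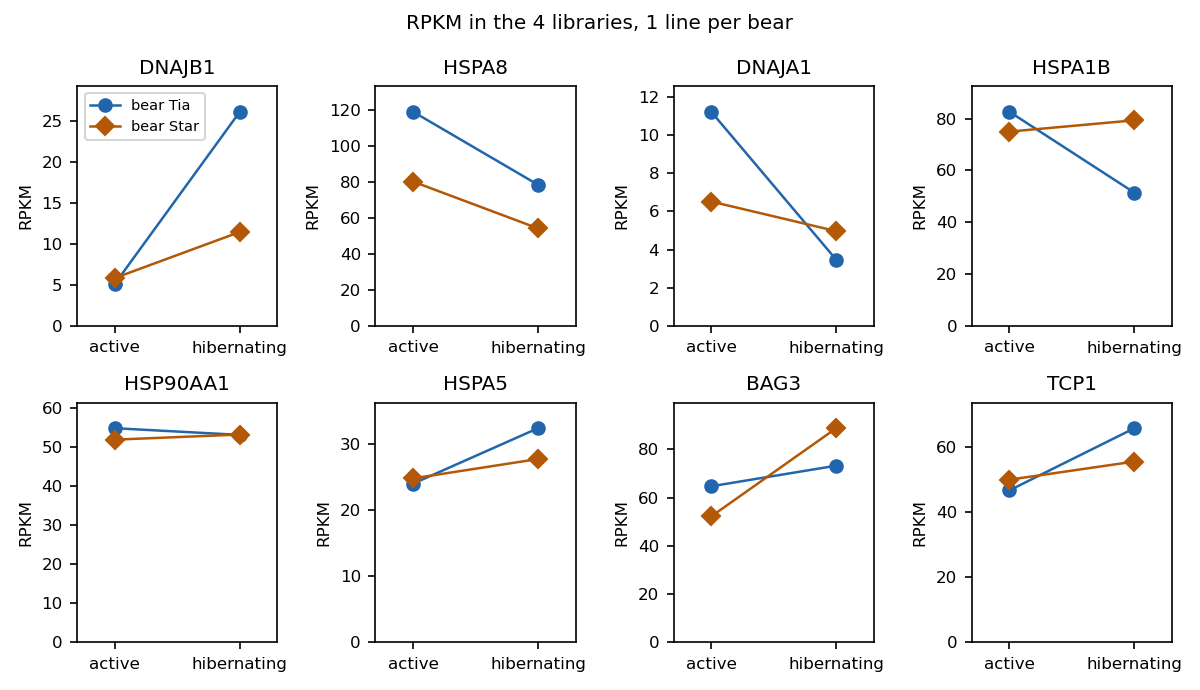
RPKM (y axis, from 0) of 8 chaperone genes in the active and hibernating library of each bear, 1 line per bear and 1 transcript per gene. DNAJB1 is higher and HSPA8 and DNAJA1 are lower in hibernation in both bears, while HSPA1B runs in opposite directions and HSP90AA1 stays between 52.0 and 54.9 RPKM.

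The remaining DNAJB genes differed less. DNAJB9, an endoplasmic reticulum (ER) co-chaperone of HSPA5, was at 8.49 RPKM in hibernating and 5.28 RPKM in active Tia and at 6.68 and 5.82 RPKM in Star, with no overlap between states and a log2 fold change of 0.41 ± 0.24. DNAJB12, a J-domain protein anchored in the ER membrane, was at 6.82 against 5.51 RPKM in Tia and 8.34 against 6.49 RPKM in Star, and its states did not overlap either. DNAJB2, which is enriched in neurons and also present in muscle, was at 7.92 against 6.30 RPKM in Tia but at 8.19 against 7.98 RPKM in Star, and its 3 transcripts had log2 fold changes of 0.04 to 0.17. In all, 6 of the 9 DNAJB transcripts separated the states upward and 0 downward, against 33.6% and 8.40% of all transcripts, with a median log2 fold change of 0.31 against 0.12. Those 6 belong to DNAJB1, DNAJB9 and DNAJB12, and transcripts of the same gene are likely to share reads. Counted by gene, 3 of 4 did so (75.0%, against 35.8% of named genes), with a median of 0.36 against 0.15. Under upper-quartile scaling, which moved the log2 differences of all transcripts by -0.20 on average, the DNAJB median by transcript was 0.12. That scaled value is not to be set against the unscaled 0.12 of all transcripts.

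DNAJA1, which brings clients to cytosolic HSP70 much as DNAJB1 does, moved the opposite way. Its single transcript (isotig25114) was at 3.47 RPKM in hibernating and 11.2 RPKM in active Tia and at 4.96 and 6.51 RPKM in Star. Both hibernating libraries were thus the lowest (-69.1% in Tia and -23.8% in Star), and the log2 fold change was -0.96 ± 0.34 (limma adjusted p = 0.577). As for DNAJB1, the difference was larger in Tia: without the active library of Tia the log2 fold change of DNAJA1 was -0.59, and without that of Star -1.33. DNAJA2, a close relative in the cytosol, was at 37.5 against 32.4 RPKM in Tia and 40.9 against 32.3 RPKM in Star (log2 fold change 0.27 ± 0.20). DNAJA3, the J-domain partner of HSP70 in mitochondria, was at 18.5 against 16.0 RPKM and 21.1 against 16.5 RPKM (log2 fold change 0.28 ± 0.21). Both were higher in both bears with no overlap, so the 3 genes of this class did not share a direction.

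The DNAJC class, the most varied J-domain group, gave 14 of 19 transcripts that separated the states upward (73.7%, against 33.6% of all transcripts) and 0 downward, but 9 of the 14 belong to DNAJC7. Counted by gene, 4 of 8 did so (50.0%, against 35.8% of named genes), with a median log2 difference of 0.19 against 0.15 over 1 transcript of every named gene. DNAJC14, a membrane protein of the ER, was at 5.15 RPKM in hibernating and 2.72 RPKM in active Tia and at 4.96 and 3.32 RPKM in Star by isotig19385. Its log2 fold change was 0.66 ± 0.25 (limma adjusted p = 0.588), and isotig19384 gave the same value of 0.66. DNAJC18 was at 2.12 against 1.40 RPKM in Tia and at 2.13 against 1.13 RPKM in Star, again without overlap (log2 fold change 0.58 ± 0.21, limma adjusted p = 0.577). The value of DNAJC18 in active Star rested on 68 reads, with an exact 95% Poisson interval of 0.874 to 1.43 RPKM, which covers counting error only. DNAJC25 followed the same order, with 3.50 against 1.84 RPKM in Tia and 2.12 against 1.56 RPKM in Star (log2 fold change 0.56 ± 0.29, limma adjusted p = 0.626, and 0.366 with the animal as a block, where it joined the members with an unadjusted p under 0.05). The share of all transcripts passing with the block is not given here, so that call has no background to be read against.

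DNAJC3, an ER co-chaperone that also inhibits the kinases of the integrated stress response, had 2 transcripts that behaved differently. The long one (isotig15783, 5133 bases) was at 5.29 RPKM in both states of Tia and at 3.87 against 4.02 RPKM in Star, a log2 fold change of -0.02 ± 0.28. The short one (isotig15784, 672 bases) was at 4.06 against 1.88 RPKM in Tia and at 2.78 against 1.55 RPKM in Star, a log2 fold change of 0.81 ± 0.27 (limma adjusted p = 0.577). The lowest of these values rested on 47 reads, and how reads that fit both transcripts were assigned is not stated.

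DNAJC7, a co-chaperone that binds HSP70 and HSP90, was split into 9 transcripts of 554 to 2012 bases. All 9 were higher in both hibernating libraries than in both active ones, with log2 fold changes of 0.24 to 0.34, and for isotig07314 the levels were 7.41 against 6.07 RPKM in Tia and 7.92 against 6.21 RPKM in Star. Such transcripts are alternative paths through 1 assembly and are likely to share reads, so they are not 9 independent measurements. DNAJC13, which acts in endosomal sorting, DNAJC17, a nuclear protein, and DNAJC21, which acts in ribosome assembly, had log2 fold changes of 0.08, -0.06 and -0.05 by their transcripts with the most reads. DNAJC21 was nevertheless the most abundant of the class, at 34.2 against 31.6 RPKM in Tia and 31.7 against 36.8 RPKM in Star.

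**Figure D3:**
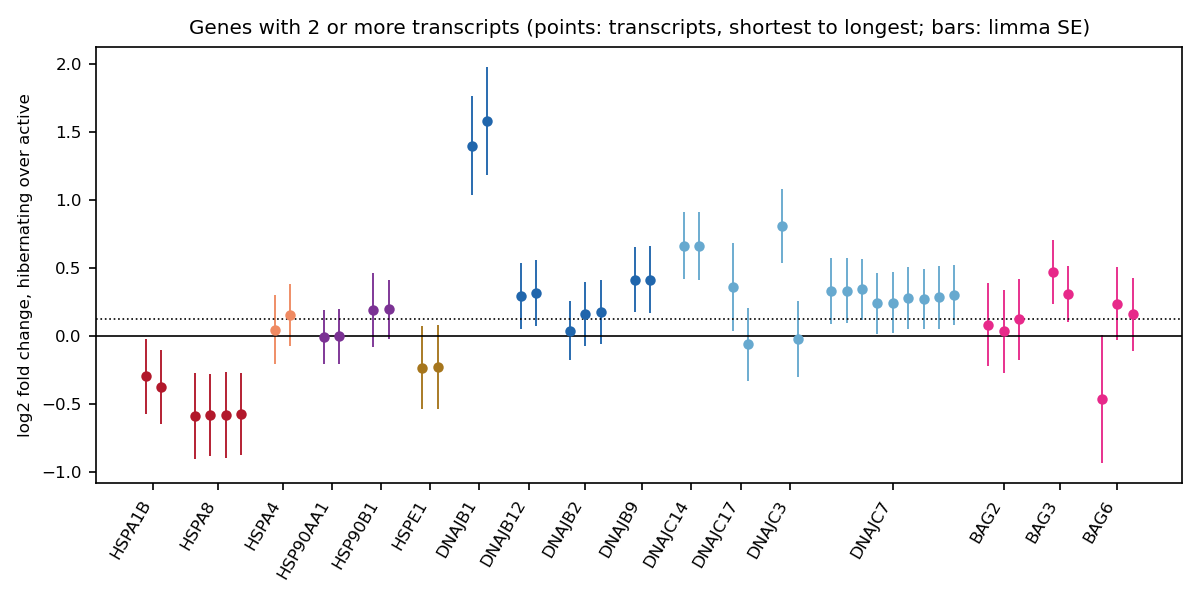
Log2 fold change, hibernating over active, of each transcript (points) of the 17 chaperone genes with 2 or more transcripts, grouped by gene on the x axis and ordered by length, with the limma SE as bars. The 4 HSPA8 transcripts lie at -0.59 to -0.57 and the 9 DNAJC7 transcripts at 0.24 to 0.34, whereas the 2 transcripts of DNAJC3 stand apart; the dotted line is the median of all transcripts.

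HSP70 genes, the partners of these J-domain proteins, ranged from lower to higher. HSPA8, the constitutive cytosolic HSP70 and the most abundant member in active muscle, was measured by isotig01851 at 78.3 RPKM in hibernating and 118.8 RPKM in active Tia and at 54.1 and 80.1 RPKM in Star. It was lower in hibernation by nearly the same share in both bears (-34.1% in Tia and -32.4% in Star), so that the bears differed in level but hardly in the size of the difference. The hibernating library of Tia lay close to the active library of Star. The log2 fold change was -0.58 ± 0.30 (limma adjusted p = 0.627), or -0.71 relative to the median of all transcripts. With the animal as a block the SE was 0.20 and the limma adjusted p 0.317. All 4 transcripts of HSPA8 then had an unadjusted limma p under 0.05, and the share of all transcripts in that setting is not given here. Leaving out the active library of Tia or the hibernating library of Star brought the log2 fold change of HSPA8 to -0.30 and -0.32.

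The 4 HSPA8 transcripts (2154, 2291, 2291 and 2428 bases) were each lower in both bears (-34.8% to -32.2%), and 2 of the 4 separated the states. Their lengths differ in steps of 137 bases, and they are likely to share most reads. The NOISeq-like score was 0.725 to 0.731 for the 4 as deposited. Under median-ratio or upper-quartile scaling the score was 0.803 to 0.827, so that all 4 passed 0.8. The share of all transcripts passing under these scalings is not given here. As HSPA8 has many processed pseudogenes in mammals, reads from near-identical copies could have entered these values.

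Within a library, the ratio of HSPA8 to DNAJB1 does not depend on the scaling between libraries. It was 3.00 in hibernating and 23.2 in active Tia, and 4.72 in hibernating and 13.7 in active Star, by each gene's most-read transcript. Both hibernating libraries thus had fewer HSPA8 transcripts per DNAJB1 transcript than both active libraries, a ratio chosen after the values of both genes were seen.

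HSPA1B, a stress-inducible HSP70, was at 51.4 RPKM in hibernating and 82.7 RPKM in active Tia, but at 79.3 and 75.0 RPKM in Star. The bears thus differed in direction, and the log2 fold change of -0.30 ± 0.27 (limma adjusted p = 0.741) came from Tia. Reads of its near-identical copy HSPA1A, for which no transcript is named in the table, cannot be told apart from it, and both HSPA1B transcripts are short (607 and 722 bases). HSPA5 (also BiP), the HSP70 of the ER, was at 32.4 against 23.999 RPKM in Tia and 27.7 against 24.8 RPKM in Star, without overlap (log2 fold change 0.29 ± 0.21). HSPA14, an HSP70 bound to ribosomes, was at 11.2 against 8.80 RPKM in Tia and 11.6 against 9.06 RPKM in Star, also without overlap (log2 fold change 0.34 ± 0.21). HSPA13, an atypical microsomal member, was at 2.99 against 2.59 RPKM in Tia and 1.92 against 2.22 RPKM in Star. By transcript, the median log2 difference of HSP70 was -0.38, and by gene it was 0.003, as 4 of the 9 transcripts belong to HSPA8. The median by transcript was -0.24 without the active library of Tia, -0.17 in Star alone and -0.57 in Tia alone. Upper-quartile scaling, which moved all log2 differences by -0.20 on average, brought this median to -0.58.

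Among the nucleotide exchange factors of HSP70, BAG3 stood at the highest level. BAG3, which takes part in the disposal of damaged filamin and other proteins at the Z-disc, was at 73.2 RPKM in hibernating and 64.7 RPKM in active Tia and at 88.7 and 52.2 RPKM in Star by isotig20108. The states did not overlap, the difference was 13.2% in Tia and 70.1% in Star, and the log2 fold change was 0.47 ± 0.23 (limma adjusted p = 0.619). By its longer transcript, isotig25279, BAG3 was at 48.4 against 40.9 RPKM in Tia and 54.4 against 42.0 RPKM in Star. BAG3 was thus unlike DNAJB1, DNAJA1 and HSPA1B in that the larger difference was seen in Star, although with 1 library per bear and state a difference between the bears could not be tested.

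BAG2, an inhibitor of the ubiquitin ligase CHIP, was at 6.60 against 5.75 RPKM in Tia and 4.13 against 4.54 RPKM in Star, and its 3 transcripts ran in opposite directions in the 2 bears. BAG6, which guards tail-anchored and mislocalized proteins, was at 19.4 against 14.7 RPKM in Tia and 21.5 against 22.6 RPKM in Star by isotig17313. A low BAG6 transcript that carries another Ensembl gene identifier (isotig29822) was at 1.16 against 2.53 RPKM in Tia and 3.66 against 3.83 RPKM in Star. Neither BAG2 nor BAG6 separated the states.

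HSP110 proteins are large relatives of HSP70 that act as its exchange factors. HSPA4 was at 17.0 against 15.7 RPKM in Tia and 14.7 against 12.8 RPKM in Star (isotig15477, log2 fold change 0.15 ± 0.23). HSPH1 was at 1.27 against 2.22 RPKM in Tia and 2.16 against 2.11 RPKM in Star, from a fragment of 488 bases. The value of HSPH1 in hibernating Tia rested on 31 reads (exact 95% Poisson interval 0.862 to 1.80 RPKM), and that in active Tia on 57 reads (1.68 to 2.88 RPKM), so the counting intervals overlapped. None of the 3 HSP110 transcripts separated the states.

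Among the HSP90 genes, HSP90AA1 differed least between the 4 libraries. HSP90AA1, the inducible cytosolic form, was at 53.2 RPKM in hibernating and 54.9 RPKM in active Tia and at 53.3 and 52.0 RPKM in Star, a log2 fold change of -0.005 ± 0.200. The other transcript, isotig08698, gave -0.007. HSP90B1 (GRP94), the HSP90 of the ER, was at 37.7 against 31.5 RPKM in Tia and 26.2 against 24.1 RPKM in Star by isotig19428 (log2 fold change 0.19 ± 0.27). Its difference between bears exceeded that between states, and the states of isotig21446 were separated by a narrow margin, with 11.5 and 12.5 RPKM in hibernation against 9.63 and 11.3 RPKM.

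Subunits of the CCT complex were listed for 6 genes, each with 1 transcript. TCP1, which encodes the alpha subunit, was at 65.7 RPKM in hibernating and 46.6 RPKM in active Tia and at 55.4 and 49.9 RPKM in Star (log2 fold change 0.32 ± 0.21, limma adjusted p = 0.682). CCT5 was at 34.5 against 31.1 RPKM in Tia and 35.7 against 26.7 RPKM in Star (log2 fold change 0.28 ± 0.21). Those were the 2 subunits whose states did not overlap. CCT2, CCT3, CCT6A and CCT7 were lower in hibernation in Tia (-12.9% to -1.8%) and higher in Star (10.6% to 34.7%). The subunits work in 1 ring in equal number, yet their transcripts spanned 22.8 to 67.3 RPKM in hibernating Tia and their log2 fold changes ranged from -0.02 to 0.32.

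The mitochondrial chaperonin was lower in hibernation in Tia, and in Star it was nearly level or higher. HSPE1, its lid, was at 26.1 against 36.1 RPKM in Tia and at 21.16 against 21.19 RPKM in Star, a log2 fold change of -0.23 ± 0.31. HSPD1, the barrel, was at 2.204 against 3.58 RPKM in Tia and at 4.99 against 4.13 RPKM in Star, a log2 fold change of -0.18 ± 0.38. HSPD1 was thus listed at a lower level per length than its partner in each library.

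**Figure D4:**
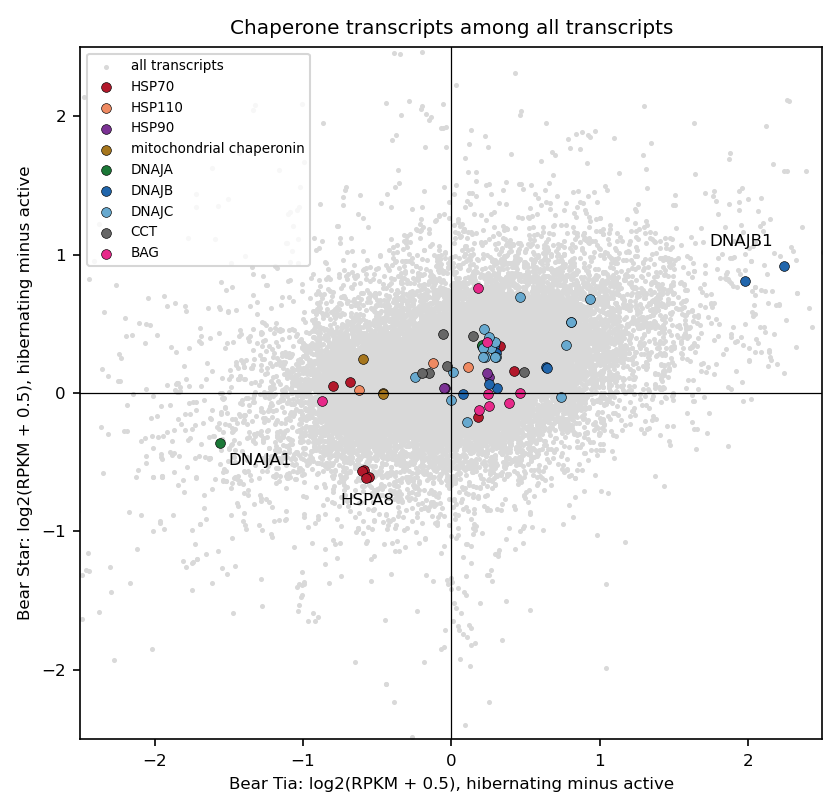
Difference in log2(RPKM + 0.5), hibernating minus active, in Tia (x axis) and Star (y axis) for all transcripts (grey) and the 64 chaperone transcripts (coloured by family). Both DNAJB1 transcripts lie at the upper right, DNAJA1 and HSPA8 at the lower left, and 79 transcripts beyond 2.5 in a bear lie outside the axes.

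Set side by side, 35 members were higher in both bears (54.7%, against 45.8% of all transcripts) and 21 differed in direction (32.8%, against 36.3%). Lower in both bears were 8 of the 64 members, against 4773 of all 26614 transcripts. With 1 transcript per gene, 18 of 35 were higher in both bears (51.4%, against 48.7% of named genes). By gene, 14 of 35 differed in direction (40.0%, against 35.2%), so the order of these 2 shares was reversed. Lower in both bears were 3 of 35 genes, against 783 of 4873. An ER list of members (HSPA5, HSPA13, HSP90B1, DNAJB9, DNAJC3 and DNAJC25) gave 3 of 6 genes higher without overlap, 0 lower and a median log2 difference of 0.24. DNAJB12 and DNAJC14, placed in the ER membrane above, were not in that list. Both were higher without overlap, with log2 fold changes of 0.31 and 0.66. The 3 mitochondrial members (HSPD1, HSPE1 and DNAJA3) gave 1 higher and 0 lower, and a median of -0.18. Over 1 transcript of every named gene the corresponding background was 35.8% higher and 8.11% lower, with a median of 0.15.

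Genes that work with chaperones but fall outside the names above were followed in 5 lists, whose counts of separated genes are to be read against 35.8% higher and 8.11% lower over 1 transcript of every named gene. Of 22 co-chaperones and heat shock factors, 12 had a transcript, of which 4 were higher without overlap (33.3%; CDC37, HSF4, TTC1 and UNC45A) and 1 was lower (8.33%; FKBP4), shares near that background, with none past the adjusted threshold in limma. By transcript, 10 of the 22 transcripts of these genes were lower in both bears and 4 higher, with a median log2 difference of -0.19. Over all 26614 transcripts, 4773 were lower in both bears and 12189 higher, with a median of 0.12. By gene, 2 of the 12 were lower in both bears and 4 higher, with a median of 0.08, against 0.15 over every named gene. HSF4, a transcription factor of the heat shock family, was at 6.12 against 3.78 RPKM in Tia and 7.40 against 4.50 RPKM in Star, the largest difference upward in the list (log2 fold change 0.64 ± 0.25, limma adjusted p = 0.592). FKBP5, an HSP90 co-chaperone induced by glucocorticoids, was at 2.52 against 5.62 RPKM in Tia and 9.85 against 12.4 RPKM in Star, so that the bears differed more than the states. HSF1 and HSF2, the main heat shock factors, had no listed transcript and were not analysed here.

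Of 9 prefoldin and CCT partner genes, 3 had a transcript, and all 3 were higher without overlap, a count too small to set against the 35.8% over all genes. PFDN2, a subunit of the prefoldin complex that hands actin and tubulin to CCT, was at 18.6 against 12.0 RPKM in Tia and 17.0 against 11.5 RPKM in Star (log2 fold change 0.58 ± 0.21, limma adjusted p = 0.577). PFDN5 and URI1 had log2 fold changes of 0.23 and 0.39. Of 16 ER folding enzymes, 6 had a transcript, and P4HB and TXNDC5, both protein disulfide isomerases, were higher without overlap (33.3%, against 35.8%). ERO1LB and ERP29 were lower in both bears (log2 fold changes -0.13 and -0.20), HYOU1 and UGGT1 differed in direction between the bears, and the list's median was -0.04. P4HB was at 69.7 against 38.3 RPKM in Tia and 57.2 against 52.0 RPKM in Star (log2 fold change 0.50 ± 0.25).

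Of 11 mitochondrial folding and quality control genes, 7 had a transcript, and LONP1, a protease of the matrix, was higher without overlap (log2 fold change 0.24), a share of 14.3% against 35.8%. Of the 23 transcripts of these genes, 4 were higher and 3 lower without overlap, and the median by gene was 0.04. Small heat shock proteins named HSPB had no transcript in the table and were not analysed here, but CRYAB, an alpha crystallin of the same family, was listed above every member in each library, at 245 against 373 RPKM in Tia and 218 against 221 RPKM in Star. FLNC, the muscle filamin that BAG3 handles, was measured by a fragment of 297 bases and was lower in both bears. It was at 136 against 179 RPKM in Tia and 102 against 216 RPKM in Star (log2 fold change -0.74 ± 0.26, limma adjusted p = 0.577). SYNPO2 was at 156 against 157 RPKM in Tia and 227 against 207 RPKM in Star. Of these 5 alpha crystallin and filamin partners, 3 had a transcript, with 1 lower without overlap (FLNC, 33.3%) and 0 higher.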

How the data were processed

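RNA was sequenced from gastrocnemius biopsies of 2 bears in 2 states. The authors assembled 454 and paired-end Illumina reads de novo (Newbler 2.3, SOAPdenovo), named transcripts by BLAST against human proteins (Ensembl 66), aligned single-end reads with SOAP2 and deposited RPKM for each transcript, bear and state. The handling of reads matching more than 1 transcript is not given in the sources used here. The lowest deposited RPKM is 1.0 in each library, so transcripts below that are not analysed here and low fold changes are bounded. Pooled and paired-end libraries were not used. Per the labels, both bears of a state form 1 single-end sample; only the column names tell the bears apart.

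Depth was read from the steps of RPKM times length among transcripts of up to 600 bases: 91.1% to 99.1% of 196 to 570 low values per library were within 0.1 of a whole read. No count test was run. Hibernating and active libraries (n = 2 each) were compared with limma 3.58.1 in R 4.3.3 on log2(RPKM + 0.5), with a trended prior and no block, two-sided, over 26614 transcripts. A NOISeq-like score (NOISeq itself was not run) is the share of 53228 within-state differences between the bears that a transcript exceeds in both ratio and difference of RPKM (threshold 0.8). The limma fit and the score were each tested on simulated data. The samples are paired, since the labels name the same bears in both states; deviations of the bears in the 2 states had a Pearson r of 0.358 over transcripts (0.332 over members). P-values measure only the spread between these 4 libraries.

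Named genes are members fixed by symbol, the most-read, most raised and most lowered transcript of each family, those with a score of at least 0.8, an unadjusted p under 0.05 or a 2-fold difference in both bears, and genes with 3 or more transcripts; the other genes were named to account for every member. The members, lists and rules were chosen with earlier results of these data known. Alternatives (the closing section gives their effect) covered the pseudocount (0.1, 1), scaling, a mean RPKM of at least 5, named transcripts only, the prior, the block, the score threshold (0.9), 1 transcript per gene, and each library or bear left out. Python 3.11.15, pandas 2.3.3, numpy 2.4.6 and matplotlib 3.10.9 served for tables and plots.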

Additional observations from a re-analysis of the deposited data

How the results depend on the processing

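With 2 bears per state, limma gave no member an adjusted p under 0.05 in the main setting or in any of the 12 alternatives run for it. Depth limits mainly the 8 members with under 100 reads in a library. Leaving out a bear leaves no residual degrees of freedom, so it gives a value with no test, and the pseudocount, the prior, the block and restriction to named transcripts do not act on counts of separated states. Causes of the following shifts were not tested. Shares of all transcripts passing the unadjusted p or the score are given here for the main setting only. Member counts by these rules under the alternatives, the block and both scalings included, thus have no background to be read against. The replicate block (animal) raised the members with an unadjusted limma p under 0.05 that were lower from 1 to 5 (the 4 HSPA8 transcripts joined DNAJA1) and changed no other call by over 1.5 times.

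Median-ratio and upper-quartile scaling gave 2 and 2 members higher (main 6) and 3 and 5 lower (main 1) by that p, 5 and 5 lower by a score of 0.8 (main 1), 13 and 13 separated downward (main 3) and, for the upper quartile, 12 upward (main 29). The same scalings brought the median log2 difference from 0.186 to 0.022 and -0.016 over all members, from -0.376 to -0.540 and -0.578 for HSP70, from 0.045 to -0.106 and -0.141 for HSP110, from 0.092 to -0.072 and -0.110 for HSP90, from 0.271 to 0.107 and 0.070 for DNAJA, from 0.312 to 0.157 and 0.122 for DNAJB, from 0.297 to 0.142 and 0.107 for DNAJC and from 0.134 to -0.030 and -0.068 for CCT. For BAG the median went from 0.139 to -0.015 and -0.051, and for the mitochondrial chaperonin from -0.232 to -0.394 and -0.432. Both scalings moved the log2 differences of all transcripts as well, by -0.166 and -0.204 on average. Medians and signs after scaling are thus not to be set against the unscaled median of all transcripts. The scalings reversed the sign of BAG2 isotig14671 (-0.119, -0.154), BAG6 isotig17313 (-0.004, -0.041) and HSPA4 isotig15477 (-0.012, -0.049). The upper quartile alone reversed that of DNAJB2 isotig11383 (-0.020) and of HSP90B1 isotig19428 (-0.013) and isotig21446 (-0.003).

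A mean RPKM of at least 5 left 2 members higher by the unadjusted p and 0 lower by the score, as did a score threshold of 0.9 for the latter. One transcript per gene gave 14 members separated upward, 1 higher by the score, and medians of 0.003 for HSP70 and 0.188 for DNAJC.

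Leaving out a library or a bear gave 2 to 6 higher and 0 to 2 lower by the unadjusted p, 7 to 18 separated downward and 33 to 39 upward (3 libraries separate more readily than 4 by construction, so these are no like comparison with 3 and 29), and medians of 0.154 to 0.260 over all members, -0.572 to -0.173 for HSP70, -0.022 to 0.097 for HSP90, -0.607 to 0.136 for the mitochondrial chaperonin, 0.176 to 0.422 for DNAJB, 0.252 to 0.327 for DNAJC and -0.062 to 0.262 for CCT. It turned the sign of BAG2 (-0.277 to 0.340), BAG6 isotig17313 (-0.144 to 0.460) and isotig29822 (-1.126 to 0.197), CCT6A (-0.196 to 0.146), DNAJC17 (-0.301 to 0.173), DNAJC21 (-0.210 to 0.109), HSP90AA1 isotig08697 (-0.045 to 0.036) and isotig08698 (-0.048 to 0.035), HSP90B1 isotig19428 (-0.071 to 0.448), HSPA1B (-0.680 to 0.081), HSPD1 (-0.686 to 0.336), HSPE1 isotig01881 (-0.610 to 0.147) and isotig01882 (-0.607 to 0.136) and HSPH1 (-0.623 to 0.025). DNAJB1, DNAJA1, HSPA8, BAG3, DNAJC14, DNAJC18 and the short DNAJC3 transcript kept their direction in every alternative run.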
